A study of Mus musculus with 6 samples.

Results

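Conventional CD4 T cells were 533 of the 19230 retained lymph node cells and of the 3917 T cells. They were chosen by a rule on transcripts and not by clustering. Each had at least 1 unique molecular identifier (UMI, 1 counted RNA molecule) of Cd3d, Cd3e or Cd3g and at least 1 of Cd4, and no UMI of Cd8a, Cd8b1, Cd79a or Foxp3. Each also had fewer than 2 UMIs of Ccl5, fewer than 2 detected of the 6 follicular helper genes Cxcr5, Pdcd1, Bcl6, Il21, Tox2 and Maf, and fewer than 2 detected of the 6 interferon-stimulated genes Ifit3, Isg15, Irf7, Oasl1, Slfn5 and Zbp1. KO mice contributed 24, 80 and 55 of these cells (KO1, KO2 and KO3), and WT mice 103, 135 and 136 (WT1, WT2 and WT3).

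The cells came from draining lymph nodes of 3 Pik3cg KO and 3 WT mice on day 34, all of which had received 3 immunizations with NP-Ova in alum. The labels give no strain, age or sex and do not say how the Pik3cg allele was made. B cells were enriched by negative selection with an added IgD antibody, and the enriched cells were pooled with untouched cells at 70% to 30%, so the share of T cells depends on this mixing. A TotalSeq-C hashtag marked each mouse, and the pool was sequenced in 2 lanes with a 5′ V(D)J kit. The mouse is the replicate throughout.

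CD4 T cells recognize peptide on MHC class II and help B cells, macrophages and CD8 T cells, in part through the CD40 ligand on their surface. Cells that have not met antigen recirculate through lymph nodes under the control of the transcription factors LEF1, TCF1 and KLF2, and of the homing receptor CCR7. Pik3cg encodes p110γ, the catalytic subunit of the class I PI3 kinase that G protein-coupled receptors activate in leukocytes, among them the chemokine receptors that position T cells.

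Depth was even across the cells but not across the mice. The median UMI count per member was 2360, 2464 and 2580 in KO mice and 2401, 2390 and 2448 in WT mice. The summed counts, on which every comparison of genes rests, were 56964, 203834 and 157093 UMIs in KO mice and 257062, 339612 and 339817 in WT mice. KO1 had the fewest cells and UMIs, and its gene profile had Spearman correlations of 0.689 to 0.722 with the other mice, which had 0.801 to 0.887 among themselves. Of all barcodes, 241 occurred in both lanes, and 4 members carried such a barcode.

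The rule rests on few transcripts per cell. Cd4 itself was seen as 1 UMI in 410 members and as 2 or more in 123. Before the 4 limits on Foxp3, Ccl5, follicular helper and interferon genes there were 649 such cells. Applied in turn, the limit on Foxp3 excluded 50 of them, that on Ccl5 4, that on follicular helper genes 13 and that on interferon genes 49. Just inside the limits lay 65 members with 1 follicular helper gene, 151 with 1 interferon gene and 5 with 1 Ccl5 UMI. The interferon limit, applied last, removed 27.9% of the KO1 cells present before the 4 limits (12 of 43), against 3.16% and 4.41% in the other KO mice and 6.21% to 9.02% in WT mice. A further 1302 T cells had neither a Cd4 nor a Cd8 UMI and met the other limits. Their Cd40lg level was 1.23 UMIs per 10000 UMIs of the class, against 1.62 in members and 0.0577 in CD8 T cells. The rule leaves out any CD4 T cell without a captured Cd4 UMI.

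Markers that the rule did not use set the members apart from CD8 T cells and B cells, but less from T cells with neither a Cd4 nor a Cd8 UMI. Cd40lg, the CD40 ligand gene, was at 2.98, 1.67 and 1.91 UMIs per 10000 in KO members and at 1.28, 1.77 and 1.32 in WT members. In the CD8 T cells selected by the same limits (1191 cells with a Cd8a or Cd8b1 UMI and no Cd4 UMI, marked naive-like CD8 in the plots) it was between 0.0223 and 0.0859, and in B cells (13630 cells with Cd79a and no Cd3 UMI) it did not exceed 0.00364. Members were above the CD8 T cells in all 6 mice. Igfbp4, a secreted binder of insulin-like growth factors used here as a marker of naive CD4 T cells, ranged from 2.93 to 4.07 in members, 1.17 to 1.47 in CD8 T cells and 0.0 to 1.37 in Foxp3-positive T cells. T cells with neither a Cd4 nor a Cd8 UMI overlapped the members in Igfbp4, at 2.06 to 3.13.

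Lef1, a transcription factor of naive T cells, separated the CD4 and CD8 classes less. It was at 9.48, 7.46 and 6.94 UMIs per 10000 in KO members and at 8.71, 8.22 and 8.51 in WT members, while CD8 T cells had 5.86 to 6.60 and Ccl5-expressing T cells 1.98 to 4.04. T cells with neither a Cd4 nor a Cd8 UMI overlapped the members in Lef1, at 6.83 to 8.10. Cd28, the main costimulatory receptor, and Cd5, a receptor that tunes antigen receptor signals, were at 1.91 and 2.08 in the pooled members, against 0.755 and 0.770 in the pooled CD8 T cells. They were at 1.70 and 1.69 in the pooled T cells with neither Cd4 nor Cd8. Pooled Foxp3-positive T cells had 1.69 and 2.64, so Cd5 was higher there than in members. Tcf7, which encodes TCF1, Il7r, the interleukin 7 receptor, and Trac, the constant region of the T cell receptor alpha chain, were in every T cell class. These levels describe the classes and were not tested, because each class was chosen by its transcripts.

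**Figure D1:**
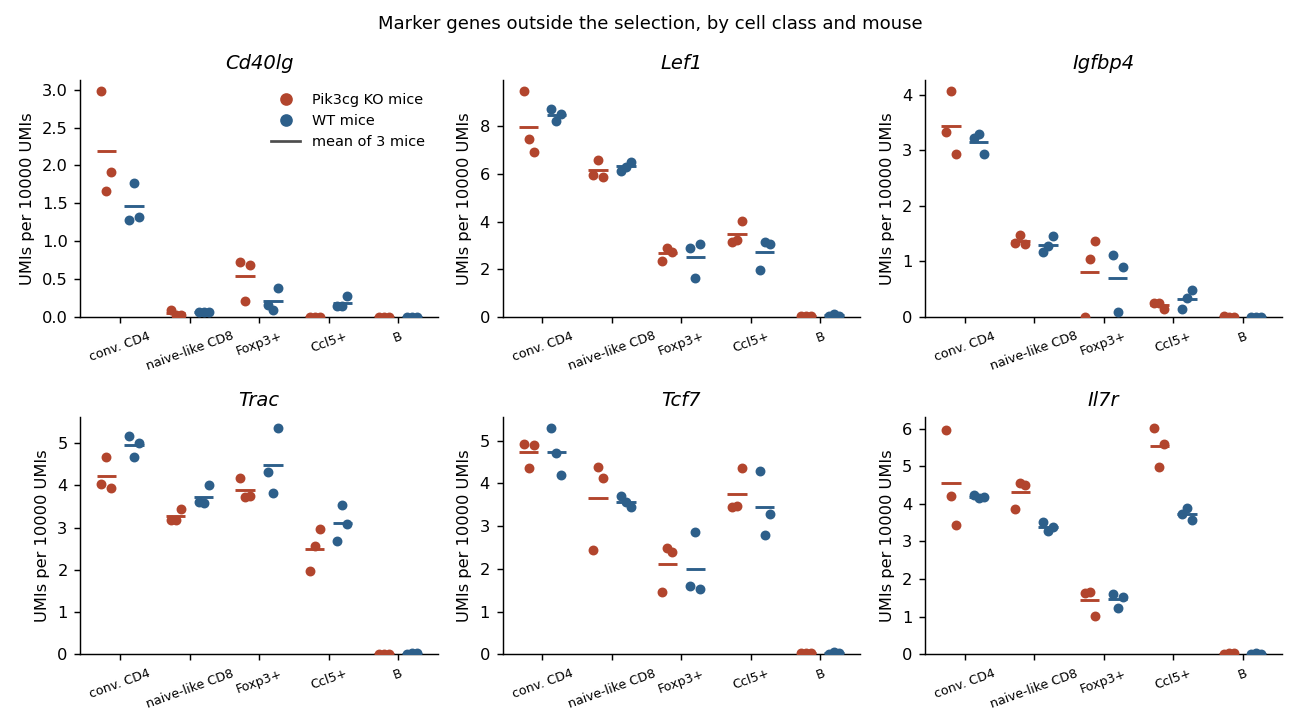
Levels of 6 marker genes that the rule did not use, in UMIs per 10000 UMIs of the class, with 1 point per mouse (3 KO and 3 WT mice) and lines for the mean of each genotype, across 5 classes of cells. Cd40lg stands at 1.28 to 2.98 in conventional CD4 T cells and at most at 0.0859 in CD8 T cells, and all 6 genes are near 0 in B cells.

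Cd79b was lower in the members than in B cells, and the summed markers of B cells and of other cells ranged widely. Cd79b was at 0.0738 UMIs per 10000 in the pooled members and at 10.3 in the pooled B cells. None of the 533 carried a productive B cell receptor contig (0 of 533, 95% exact Clopper-Pearson upper bound 0.690%; a count of 0 allows up to 0.563%), against 75.4% of the B cells. A Cd4 UMI occurred in 25 of 1216 T cells with a Cd8 UMI (2.06%, 95% exact interval 1.34% to 3.02%) and in 4 of 13630 B cells (0.0294%). These intervals and floors cover counting error only. The summed level of the 20 B cell markers, all of them detected, was 304.3, 363.7 and 237.8 CPM (counts scaled to the TMM-adjusted total of tested genes in each mouse) in KO members and 529.2, 358.9 and 613.0 in WT members, with overlap between the genotypes. In WT3 this sum was above the mean of Cd4 in WT members (583.5 CPM). Cd74 and Ighm had enough counts to be tested. They averaged 78.2 and 139.5 CPM in KO members and 129.6 and 179.4 CPM in WT members.

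Antibody-secreting cell markers were detected for 6 of 9 genes (Sdc1, Derl3 and Igha were at 0). Their sum was 55.1 to 66.9 CPM in KO members and 23.1 to 46.9 CPM in WT members, without overlap. It rested on few UMIs, as 1 UMI was worth 20.3 CPM in KO1, and 0 of these genes had enough counts to be tested. Among single tested genes, 7.57% were higher in all KO mice than in all WT mice. Of the 18 myeloid markers 12 were detected, at 101.4 to 198.4 CPM in KO members and 117.4 to 135.0 CPM in WT members, with Csf1r, Itgam, Itgax, C1qb, Cd14 and Xcr1 at 0. Of the 14 natural killer and gamma delta T cell markers 6 were detected, at 20.3 to 104.1 CPM in KO members and 8.54 to 36.2 CPM in WT members. Regulatory T cell markers other than Foxp3 summed to 101.4 to 446.4 CPM in KO members and 179.3 to 352.3 CPM in WT members, and follicular helper markers to 527.5 to 821.2 CPM in KO members and 644.5 to 945.0 CPM in WT members. The follicular helper sum was not low, since Cd4 itself averaged 564.3 CPM in KO members and 583.5 CPM in WT members. Tox alone averaged 305.9 CPM in KO members and 355.6 CPM in WT members. These sums were not compared with those in the cell types named. The part of these cells in the results below was not tested.

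Members varied in transcripts of naive and of antigen-experienced cells. Detection in single cells was compared after drawing 1000 UMIs from each cell, which left out 3 of the 533 (1 of WT2 and 2 of WT3). Lef1 was then seen in 50.9% of members (77.6% before thinning), Klf2, which sustains lymph node recirculation, in 23.8% (46.6%), Ccr7 in 19.3% (37.2%) and S1pr1, the receptor for exit from lymph nodes, in 19.1% (41.5%). Cd44, an adhesion receptor that memory cells carry at higher levels, was seen in 9.62% (18.7%), the integrin gene Itgb1 in 5.85% (10.6%), and S100a6 and S100a4 in 2.26% and 1.89% (3.58% and 3.02%). Activation-related genes were seen in few cells, with Cd69 in 4.72% (10.9%), Icos in 3.96% (9.25%) and Tnfrsf4, which encodes OX40, in 2.45% (4.15%). Cd40lg was seen in 17.7% of members (30.8%), against 0.595% of CD8 T cells (1.36%) and 0.0% of B cells (0.0532%), a share that reads as background in the last.

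A set of 6 genes of antigen-experienced T cells was used to divide the members: S100a4, S100a6, Lgals1, Itgb1, Crip1 and Cd44. Of the 533 members, 88 (16.5%) had none of them, 250 (46.9%) had 1, 147 (27.6%) had 2, and 27, 12, 7 and 2 cells had 3, 4, 5 and 6. After thinning, 92 cells had 2 or more and 438 had fewer. Genes outside the list differed between these cells. S100a10, a calcium-binding partner of annexin A2, was at 6.63 UMIs per 10000 in the 92 cells and 3.08 in the 438, and S100a11 at 2.72 and 0.753, both higher in the cells with 2 or more list genes in 6 of 6 mice. Icos, a costimulatory receptor of activated helper cells, was at 1.85 and 0.297 (17 and 13 UMIs; higher in 5 of 6 mice), Ahnak at 1.30 and 0.228 (5 of 6 mice) and Cd40lg at 2.94 and 1.76 (4 of 6 mice). Satb1, a chromatin organizer of naive T cells, went the other way, at 3.70 and 6.76 (higher in 1 of 6 mice), as did Igfbp4, at 2.28 and 3.36 (0 of 6 mice). Not all genes of these kinds followed: the naive-state genes Dapl1 (1.96 and 1.48, higher in 4 of 6 mice) and Ccr7 (2.39 and 2.24, 2 of 6 mice) were not lower in the 92 cells. Of memory-associated genes, Itgb7 was at 1.52 and 1.62 (3 of 6 mice) and Emp3 at 4.46 and 3.33 (2 of 6 mice). The split was made on transcripts of the same cells, so these values describe it and carry no test.

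The share of such cells did not separate the genotypes. Members with at least 2 of the 6 genes were 20.8%, 40.0% and 40.0% in KO mice and 37.9%, 34.8% and 36.8% in WT mice. KO1, with 24 cells, was the lowest and the other KO mice were the highest of the 6. The means were 33.6% ± 11.1 in KO mice and 36.5% ± 1.54 in WT mice (SD, n = 3 each; exact permutation test, two-sided over 20 assignments, p = 1.0). Without KO1 the difference turned to 3.52 percentage points higher in KO mice. Thinned to 1000 UMIs, the shares were 12.5%, 15.0% and 21.8% in KO mice and 18.5%, 16.4% and 17.9% in WT mice.

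Conventional CD4 T cells took a smaller share of the retained cells in every KO mouse. They made up 0.848%, 1.97% and 2.16% of retained cells in KO mice and 3.19%, 4.51% and 3.79% in WT mice. The highest KO mouse was below the lowest WT mouse. The means were 1.66% ± 0.711 in KO mice and 3.83% ± 0.659 in WT mice (SD, n = 3 each), a difference of -2.17 percentage points (exact permutation test, p = 0.1, the smallest value that 3 against 3 allows; Benjamini-Hochberg adjusted p = 0.4 over the 4 shares and ratios tested). This share moves with how the enriched and untouched cells of each mouse were mixed, and that part of the difference was not tested. Thinned to 1000 UMIs per cell, which captures Cd4 in fewer cells, the shares were 0.624%, 0.997% and 1.16% in KO mice and 1.66%, 2.50% and 1.84% in WT mice, a difference of -1.08 percentage points, still without overlap. Retained B cells numbered 2203, 3167 and 1919 in KO mice and 2231, 1697 and 2413 in WT mice.

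Within T cells the genotypes overlapped, and most of the difference rested on KO1. The share was 5.97%, 13.4% and 14.1% in KO mice and 15.7%, 13.5% and 15.6% in WT mice. KO1 was far below the rest, and KO3 was above the lowest WT mouse. The means were 11.2% ± 4.51 in KO mice and 14.9% ± 1.27 in WT mice (SD, n = 3 each; exact permutation test, p = 0.2; adjusted p = 0.4). The difference was -3.78 percentage points with all mice and -1.19 without KO1, and it was -1.46 after thinning. With all 4 limits lifted, a setting chosen after seeing the data, the shares of T cells were 10.7%, 15.9% and 17.4% in KO mice and 18.6%, 16.0% and 18.5% in WT mice.

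Relative to CD8 T cells, the difference was within the spread between mice. There were 0.308, 0.523 and 0.458 conventional CD4 T cells per CD8 T cell in KO mice and 0.491, 0.370 and 0.513 in WT mice. The genotypes overlapped, with the lowest and the highest value both in KO mice. The mean ratio was 0.430 ± 0.110 in KO mice and 0.458 ± 0.0770 in WT mice (SD, n = 3 each; exact permutation test, p = 0.7; adjusted p = 0.933). The difference of -0.0282 changed sign to 0.0328 without KO1.

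**Figure D2:**
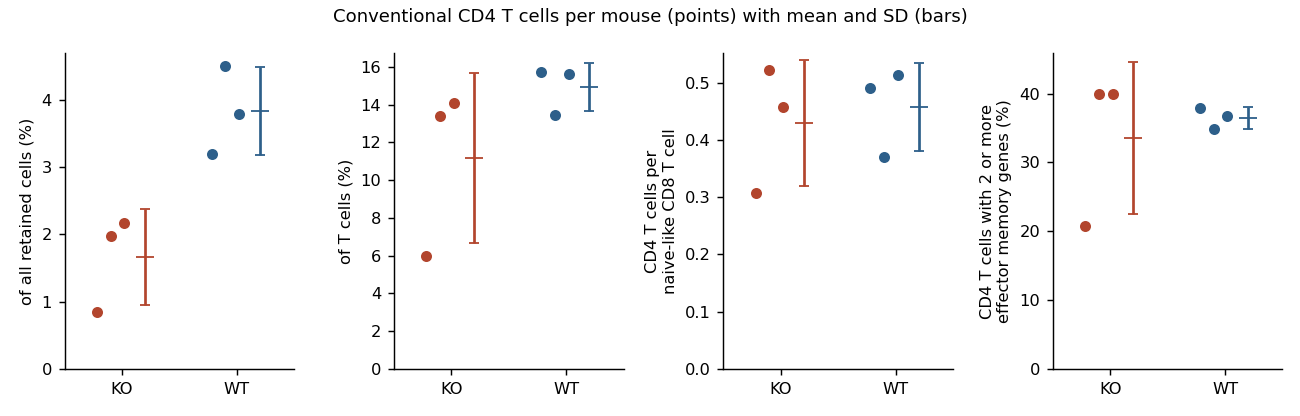
Conventional CD4 T cells as a percentage of retained cells and of T cells, as a ratio to CD8 T cells, and the percentage of members with at least 2 of 6 effector memory genes, with 1 point per mouse and bars for the mean and SD of 3 KO and 3 WT mice. The genotypes separate only in the first panel, where KO mice lie between 0.848% and 2.16% and WT mice between 3.19% and 4.51%.

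The targeted gene could not check the labels in these cells. Pik3cg (ENSMUSG00000020573, chromosome 12, 32173473 to 32208659, GRCm38) gave 1, 7 and 4 UMIs in KO members and 4, 4 and 11 in WT members, too few to enter the test. The labels do not say which part of the gene is deleted, and a 5′ library can count transcripts of a disrupted gene. Of the 3093 genes tested within members by edgeR's quasi-likelihood test, 19 lie within 20 Mb of Pik3cg, and 2 of these, Id2 and Rps7, had an unadjusted p under 0.05 (10.5%, against 7.35% of the other 3074).

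A single gene separated KO from WT members past the threshold. Of the 3093 genes, 1 passed an edgeR Benjamini-Hochberg adjusted p under 0.05 (0.0323%), as lower in KO members, and 0 (0.0%) as higher. DESeq2 also called 1. At an unadjusted p under 0.05 there were 228 genes (7.37%), of which 123 were higher (3.98%) and 105 lower (3.39%) in KO members, and in 445 (14.4%) all KO mice lay on one side of all WT mice (234 or 7.57% higher, 211 or 6.82% lower). The median log2 fold change (KO over WT) of all genes was 0.02. In KO1 a single UMI was worth 20.3 CPM, against 3.26 to 7.43 CPM in the other mice, so changes in genes of low count were not detectable at this depth.

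The gene called was Hspa1b (ENSMUSG00000090877), which encodes an inducible HSP70 chaperone and lies on chromosome 17 from 34956436 to 34959238 on the minus strand (GRCm38). It was at 20.3, 99.2 and 74.3 CPM in KO members (1, 18 and 10 UMIs) and at 247.5, 329.3 and 264.1 CPM in WT members (58, 100 and 81 UMIs). Every KO mouse was below every WT mouse. The means were 64.6 ± 40.4 CPM in KO members and 280.3 ± 43.2 CPM in WT members (SD, n = 3 each), and edgeR gave a log2 fold change of -1.83 (SE 0.27, adjusted p = 0.000885). The neighbouring Hspa1a, which encodes an almost identical protein and was named after its values were seen, had 0.0, 104.7 and 37.2 CPM in KO members and 157.9, 187.7 and 104.3 CPM in WT members. KO2 lay just above the lowest WT mouse, and Hspa1a was not called (log2 fold change -1.19 with SE 0.38, adjusted p = 0.398 by edgeR).

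The lower Hspa1b level was seen in single cells too. After thinning, 0.0%, 7.50% and 7.27% of KO members had an Hspa1b UMI, against 13.6%, 27.6% and 15.7% of WT members. The call held when any 1 mouse was left out, with log2 fold changes between -2.24 and -1.67. It was lost in lane 1 alone (-1.97, edgeR adjusted p = 0.118) and among cells with at least 2 Cd4 UMIs (-1.61, adjusted p = 0.254). In these settings KO1 had 7 cells and dropped out, and fewer genes were tested (1530 and 991). The part of each in the loss was not tested. The call was also lost when cells with any of the 6 interferon genes were left out (-1.40, edgeR adjusted p = 0.0581). Over all 20 alternatives the adjusted p ran from 1.48e-09 to 0.254.

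The genes Hspa1b and Hspa1a share most of their sequence, and their promoters are shown because the called gene and its copy carry the same binding motif. The 250 bases before each start (RefSeq, GRCm38.p6, chr17:34959239-34959488 for Hspa1b and chr17:34972157-34972406 for Hspa1a, both minus strand) are printed 5′ to 3′, with a match to GAANNTTC in capitals, an inverted pair of the unit bound by heat shock factors.
Hspa1b: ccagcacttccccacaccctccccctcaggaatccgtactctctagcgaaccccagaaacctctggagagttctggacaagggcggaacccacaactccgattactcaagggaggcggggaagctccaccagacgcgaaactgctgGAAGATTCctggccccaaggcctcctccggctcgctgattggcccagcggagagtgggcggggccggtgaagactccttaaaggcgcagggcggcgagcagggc
Hspa1a: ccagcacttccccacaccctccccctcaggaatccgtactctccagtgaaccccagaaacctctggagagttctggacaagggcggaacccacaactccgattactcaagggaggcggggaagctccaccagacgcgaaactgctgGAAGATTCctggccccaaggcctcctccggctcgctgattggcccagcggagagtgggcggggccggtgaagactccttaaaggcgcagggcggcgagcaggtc
The 2 stretches differ at 3 of 250 bases (98.8% identity), and each holds 1 match, 104 bases before the start. Among 32851 RefSeq promoter entries, searched over the 250 bases before the start only, GAANNTTC was found in 2199 (6.69%), TTCNNGAA in 2354 (7.17%) and either in 4218 (12.8%). Each motif reads the same on both strands. Of the 10 tested heat shock and dissociation genes with a promoter entry, 7 held either motif: Dnaja1, Hspa1a, Hspa1b, Hspd1, Hspe1, Hsph1 and Jun. A gene counted here if any of its entries held a motif, whereas the 12.8% is a share of entries. Of the 7, Hspd1 (log2 fold change 0.18) and Hspe1 (0.27) were higher in KO members and the others lower. Hspa5 (-0.72), Fos (-0.73) and Dnajb1 (-0.47) held neither motif and were lower too. A relation of the motif to the KO effect was not tested. A match describes the letters and does not show binding. Of the 50-base windows of the Hspa1b transcript, 62.3% occur unchanged in that of Hspa1a, so the counts of each of the pair are uncertain.

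Lower Hspa1b in KO mice was not limited to CD4 T cells. On the scale of UMIs per 10000 it was at 0.176, 0.883 and 0.637 in KO members and at 2.26, 2.95 and 2.38 in WT members. B cells had 0.196, 0.690 and 0.513 in KO mice and 1.53, 2.36 and 2.77 in WT mice, again without overlap. By edgeR in each class, the log2 fold change was -1.46 in CD8 T cells (adjusted p = 1.67e-05), -1.09 in T cells with neither Cd4 nor Cd8 (adjusted p = 0.00417), -2.16 in Ccl5-expressing T cells (adjusted p = 0.00536) and -1.72 in interferon-responding T cells (adjusted p = 0.00231). In B cells it was -2.22 (SE 0.44) and not called (adjusted p = 0.516). Foxp3-positive T cells, with 11 to 36 cells per mouse, overlapped, at 0.683 to 1.45 in KO mice and 0.476 to 1.78 in WT mice. The KO effect did not differ detectably between members and CD8 T cells (difference -0.42, SE 0.36, adjusted p = 0.956 by edgeR). Hspa1a was called by edgeR as lower in KO mice in CD8 T cells (-1.745, adjusted p = 0.00114). It was also called in interferon-responding T cells (-2.41, adjusted p = 0.0195). It was not called in T cells with neither Cd4 nor Cd8 (-0.97), Ccl5-expressing T cells (-1.555) or B cells (-2.18).

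**Figure D3:**
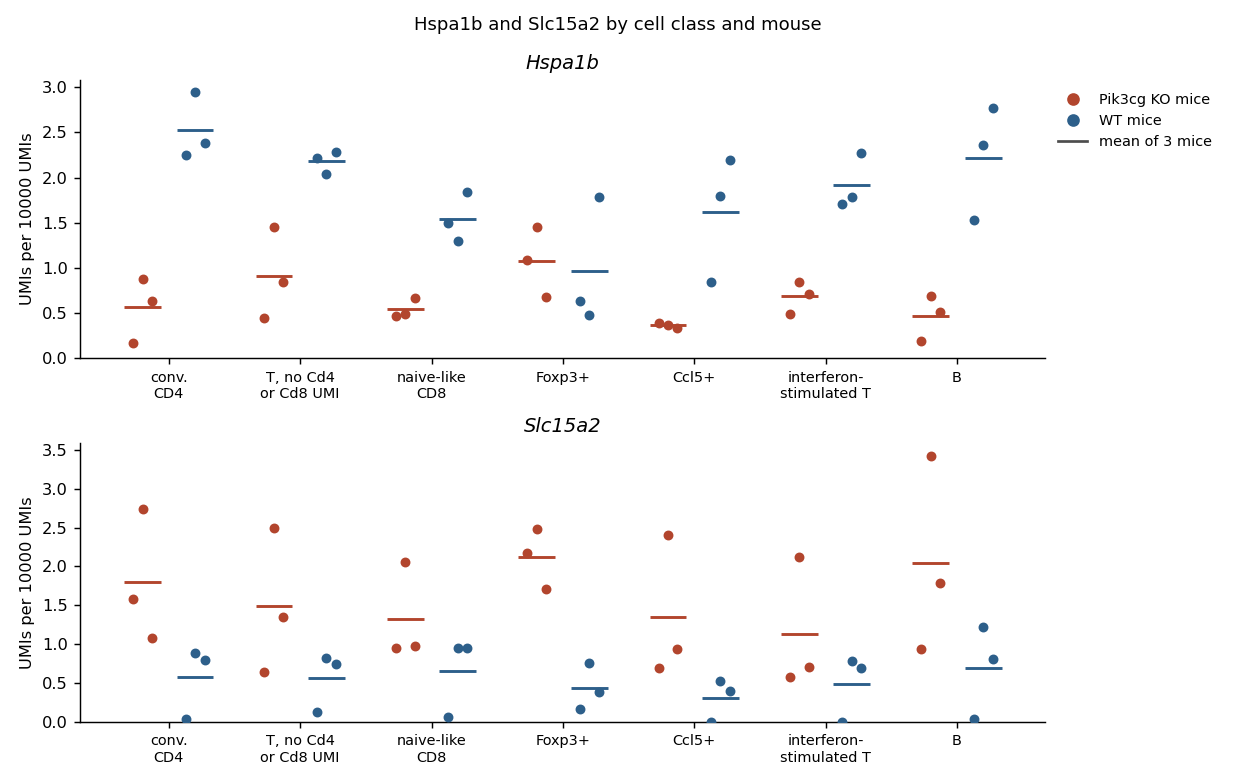
Levels of Hspa1b and Slc15a2 in UMIs per 10000 UMIs of the class, with 1 point per mouse, in 7 classes of cells of 3 KO and 3 WT mice. Hspa1b is lower in KO mice in members (0.176 to 0.883, against 2.26 to 2.95 in WT mice) and in B cells, and Slc15a2 is lowest in WT1 in each class, at 0.0 to 0.160.

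The genes with the next smallest p-values were not called, and their values are given as a description. Picking by p-value favours genes whose mice do not overlap between genotypes, as held for 14.4% of all tested genes. Of the 19, 11 were higher and 8 lower in KO members, with edgeR adjusted p from 0.0855 to 0.352. Igf1r, the receptor for insulin-like growth factor 1, was at 81.2, 110.2 and 111.5 CPM in KO members and at 46.9, 29.6 and 26.1 CPM in WT members, without overlap (log2 fold change 1.67, SE 0.35, adjusted p = 0.0855 by edgeR). In other classes Igf1r was called as higher in KO mice, in CD8 T cells (log2 fold change 1.23, adjusted p = 0.0356) and in T cells with neither Cd4 nor Cd8 (1.05, adjusted p = 0.00417). The test of a difference between members and CD8 T cells gave 0.47 (SE 0.48, edgeR adjusted p = 0.966).

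Slc15a2, a peptide transporter gene, was at 182.6, 308.6 and 126.4 CPM in KO members and at 4.27, 98.8 and 88.0 CPM in WT members (log2 fold change 1.69, SE 0.39, adjusted p = 0.133 by edgeR). WT1 stood apart: it had 1 UMI in 103 cells. In B cells, too, Slc15a2 was at 0.942, 3.42 and 1.79 UMIs per 10000 in KO mice and at 0.0400, 1.22 and 0.811 in WT mice. By edgeR, Slc15a2 was called as higher in KO mice in T cells with neither Cd4 nor Cd8 (1.46, adjusted p = 0.0218). It was higher but not called in CD8 T cells (0.99, adjusted p = 0.208) and B cells (1.62, adjusted p = 0.520). The same held in Foxp3-positive (2.15, adjusted p = 0.269) and Ccl5-expressing T cells (2.06, adjusted p = 0.102). Leaving out single mice moved the log2 fold change in members between 1.04 and 2.09.

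Among these uncalled genes, 3 with lower values in KO members are stress-response or immediate-early genes. Klf6, a zinc finger transcription factor induced early after stimulation, was at 20.3, 66.1 and 44.6 CPM in KO members and at 93.9, 191.0 and 153.2 CPM in WT members (log2 fold change -1.52, edgeR adjusted p = 0.133). Its log2 fold change was -0.57 in CD8 T cells (edgeR adjusted p = 0.473). In T cells with neither Cd4 nor Cd8 it was -0.33 (adjusted p = 0.863), and in Foxp3-positive T cells 0.51 (adjusted p = 0.999). Ppp1r15a, which encodes the stress-induced phosphatase regulator GADD34, was at 60.9, 66.1 and 66.9 CPM in KO members and at 111.0, 197.6 and 140.2 CPM in WT members (-1.20, edgeR adjusted p = 0.166). It was called by edgeR as lower in KO mice in CD8 T cells (-1.25, adjusted p = 0.00499). It was not called in T cells with neither Cd4 nor Cd8 (-0.87, adjusted p = 0.0678), Ccl5-expressing T cells (-0.48) or B cells (-0.25). Btg2, an antiproliferative early gene, was at 162.3, 176.4 and 163.5 CPM in KO members and at 290.2, 273.3 and 244.5 CPM in WT members (-0.66, edgeR adjusted p = 0.352). In members, each of these genes was lower in every KO mouse than in every WT mouse, as were 6.82% of all tested genes. The others lower in KO members were Gphn, a scaffold protein gene (-0.50), Gimap6, a GTPase of lymphocyte survival (-0.59), Pdha1 of pyruvate dehydrogenase (-1.74), the mitochondrial carrier Slc25a40 (-1.43) and Trpc4ap (-1.46). The last 3 had few UMIs in KO members: 2, 4 and 2 for Pdha1, 1, 5 and 3 for Slc25a40, and 3, 3 and 4 for Trpc4ap. Trpc4ap overlapped between genotypes, at 60.86 CPM in KO1 and 59.75 CPM in WT1.

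The others higher in KO members had few UMIs or small changes. Tbc1d4, a regulator of vesicle traffic that is also listed here as a follicular helper marker, was at 60.9, 93.7 and 118.9 CPM in KO members and at 12.8, 49.4 and 29.3 CPM in WT members (log2 fold change 1.61). Id2, an inhibitor of E proteins that effector T cells use, was at 60.9, 137.8 and 126.4 CPM in KO members and at 64.0, 65.9 and 48.9 CPM in WT members (1.04), with KO1 among the WT values. The long noncoding RNA Pvt1 (1.10), the splicing factor gene Eftud2 (1.56), the fucose synthesis gene Gmds (1.38), Trps1 (1.34) and Sdhb of respiratory complex II (0.99) did not overlap between genotypes, and neither did the ribosomal protein genes Rpl13 (0.19) and Rps18 (0.22). None of these passed the threshold (edgeR adjusted p from 0.166 to 0.327).

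The identity markers differed little between genotypes. Cd40lg was at 344.9, 187.4 and 223.0 CPM in KO members and at 140.8, 197.6 and 146.7 CPM in WT members, with KO2 inside the WT range (log2 fold change 0.46, SE 0.23, edgeR adjusted p = 0.666). Lef1 had a log2 fold change of -0.11 (SE 0.11, adjusted p = 0.867), Igfbp4 0.21 (SE 0.16, adjusted p = 0.805) and Trac -0.16 (SE 0.13, adjusted p = 0.853) by edgeR. For Il7r and Tcf7 it was 0.05 (SE 0.15) and 0.03 (SE 0.14). On the CPM scale the genotypes overlapped in all 6, for Trac only by 523.6 CPM in both KO2 and WT2. Per 10000 UMIs, Trac was at 3.95 to 4.66 in KO members and 4.68 to 5.17 in WT members, without overlap. Every KO mouse was also below every WT mouse in CD8 T cells (at most 3.44, against at least 3.57). The same held in T cells with neither Cd4 nor Cd8 (at most 3.31, against at least 4.16). Trac overlapped in Foxp3-positive, Ccl5-expressing and interferon-responding T cells and in B cells.

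Gene groups were read by how many tested members lay on each side of 0, beside 1617 higher and 1476 lower among all tested genes. At an unadjusted p under 0.05 by edgeR, 3.98% of all tested genes were higher and 3.39% lower in KO members. Without overlap between the mice, 7.57% were higher and 6.82% lower. Only genes with enough counts were tested, so these counts leave out members of low level. In the heat shock and dissociation group, 14 of 21 genes were tested, 3 higher and 11 lower, with a median log2 fold change of -0.57 (all genes 0.02). Hspa1b was called, and 6 more had an unadjusted p under 0.05, all lower in KO members: Hspa1a, Hspa5 of the endoplasmic reticulum, the cytosolic chaperone genes Hsp90ab1 and Dnaja1, and the early transcription factor genes Fos and Jun. Hspa8, the constitutive HSP70, was not among them (log2 fold change -0.04), nor was Hspe1 (0.27). The median stayed below 0 without any 1 mouse, with other size factors and in members with fewer than 2 effector memory genes, between -0.68 and -0.32.

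The immediate-early and activation group shares Fos and Jun with that group. Of its 16 tested genes, 3 were higher and 13 lower (median -0.30), with 0 called and Fos, Jun, Klf6 and Btg2 lower at an unadjusted p under 0.05. Fos was at 81.2, 132.3 and 52.0 CPM in KO members and at 162.2, 164.6 and 150.0 CPM in WT members, without overlap. Jun was at 263.7, 154.3 and 44.6 CPM in KO members and at 166.4, 299.6 and 238.0 CPM in WT members, with KO1 inside the WT range. In other classes edgeR called Jun as lower in KO mice in CD8 T cells (-1.23, adjusted p = 0.00016). It also called Jun in T cells with neither Cd4 nor Cd8 (-0.74, adjusted p = 0.0409). Jun was not called in Ccl5-expressing (-0.56), interferon-responding (-0.19) or Foxp3-positive T cells (0.46) or in B cells (-0.45). In members, Jund (-0.22) and Junb (-0.26) were not past an unadjusted p of 0.05.

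Genes of cytosolic ribosomal proteins lay slightly above 0 almost throughout. Of 80 tested genes, 77 were higher and 3 lower, with a median log2 fold change of 0.10. Unadjusted p under 0.05 was reached by 20, all higher, and 31 were higher without overlap between the mice. Over all tested genes these shares were 3.98% and 7.57%. None was called by edgeR after adjustment. Rpl13 was at 9231, 8741 and 8807 CPM in KO members and at 7456, 7916 and 7998 CPM in WT members. The 3 genes of the group with the highest mean CPM, Rps24, Rps29 and Rpl37a, had log2 fold changes of 0.05, 0.01 and 0.10, and the largest was that of Rpl29 (0.27). The median ranged from 0.05 to 0.11 over the same alternatives. These genes take part in the scaling of every sample.

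Genes of the naive state lay mostly lower and those of the effector memory state mostly higher, with small values. Of 24 naive and quiescence genes, 6 were higher and 18 lower (median -0.11). Foxp1, a keeper of quiescence, had a log2 fold change of -0.22 and Satb1 of -0.39, both at an unadjusted p under 0.05 and without overlap. Of all tested genes, 3.39% and 6.82% were lower by these 2 measures. Satb1 was at 507.2, 650.3 and 438.5 CPM in KO members and at 717.0, 688.2 and 746.6 CPM in WT members. Of 14 tested effector memory genes, 12 were higher and 2 lower (median 0.22), with Id2 (1.04) and the LIM protein gene Crip1 (0.22) at an unadjusted p under 0.05. S100a10 (0.21) and Tmsb10 (-0.08) were not. No gene of either group was called, and the effector memory median lay between 0.00 and 0.26 over the alternatives.

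Signalling groups around class I PI3 kinase showed no call. In the class I PI3K and phosphatase group, 4 of 13 tested genes were higher and 9 lower (median -0.21), with Pik3cd, the p110δ subunit of lymphocytes, at -0.21 (SE 0.22) and the phosphatase gene Inpp4b at 0.12 (SE 0.12). In the group of FOXO targets and genes that PI3K restrains, 6 of 16 were higher and 10 lower (median -0.12), with Klf2 at -0.14 (SE 0.21). Heterotrimeric G protein and regulator genes were higher in 14 and lower in 5 (median 0.07). No gene of these 3 groups had an unadjusted p under 0.05. T cell receptor signalling genes were higher in 7 and lower in 18 (median -0.09), with Cd247, the receptor's zeta chain, and Cd2 lower and Sla higher at an unadjusted p under 0.05.

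Groups of helper function, migration and metabolism also had no call. Of 10 tested costimulation genes, 6 were higher and 4 lower (median 0.23), and Tnfsf8, which encodes CD30 ligand, was at 40.6, 82.7 and 104.1 CPM in KO members and at 51.2, 32.9 and 29.3 CPM in WT members (log2 fold change 1.19, edgeR adjusted p = 0.398), with KO1 inside the WT range. Cytokine receptor and signalling genes were higher in 6 and lower in 8 (median -0.10), with Ifnar2 and Il17ra lower at an unadjusted p under 0.05. Positioning receptors were higher in 3 and lower in 4, with Ccr7 at -0.10 and S1pr1 at -0.25. Nuclear genes of oxidative phosphorylation were higher in 24 and lower in 12 (median 0.08), glycolysis genes higher in 5 and lower in 4 (median 0.01), and MYC targets higher in 11 and lower in 6 (median 0.10). In these 3 groups Sdhb (0.99), Pgam1 (0.91) and Nme2 (0.29) were higher and Wdr43 (-0.80) lower at an unadjusted p under 0.05. T helper lineage genes were higher in 4 and lower in 5 (median -0.08), integrin and adhesion genes higher in 7 and lower in 10 (median -0.04), and calcium and NFAT genes higher in 11 and lower in 8 (median 0.04). Of these, Stat4 (-0.89) and Selplg (-0.46) were lower at an unadjusted p under 0.05. Of 11 survival genes, 3 were higher and 8 lower (median -0.09). At an unadjusted p under 0.05, Bcl2, an inhibitor of apoptosis (0.59), and Traf1 (0.99) were higher, and Birc3 (-0.65), Gimap3 (-0.38) and Gimap6 (-0.59) were lower. Interferon-stimulated genes, some of which the rule used, were higher in 7 and lower in 12 (median -0.15), and this median lay on either side of 0 over the alternatives, between -0.26 and 0.09. Slfn1 (0.81) was higher and Dtx3l (-0.96) lower at an unadjusted p under 0.05. Slfn5 (-1.44) was lower too, but the rule limited its detection, so its p-value is no test of genotype.

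**Figure D4:**
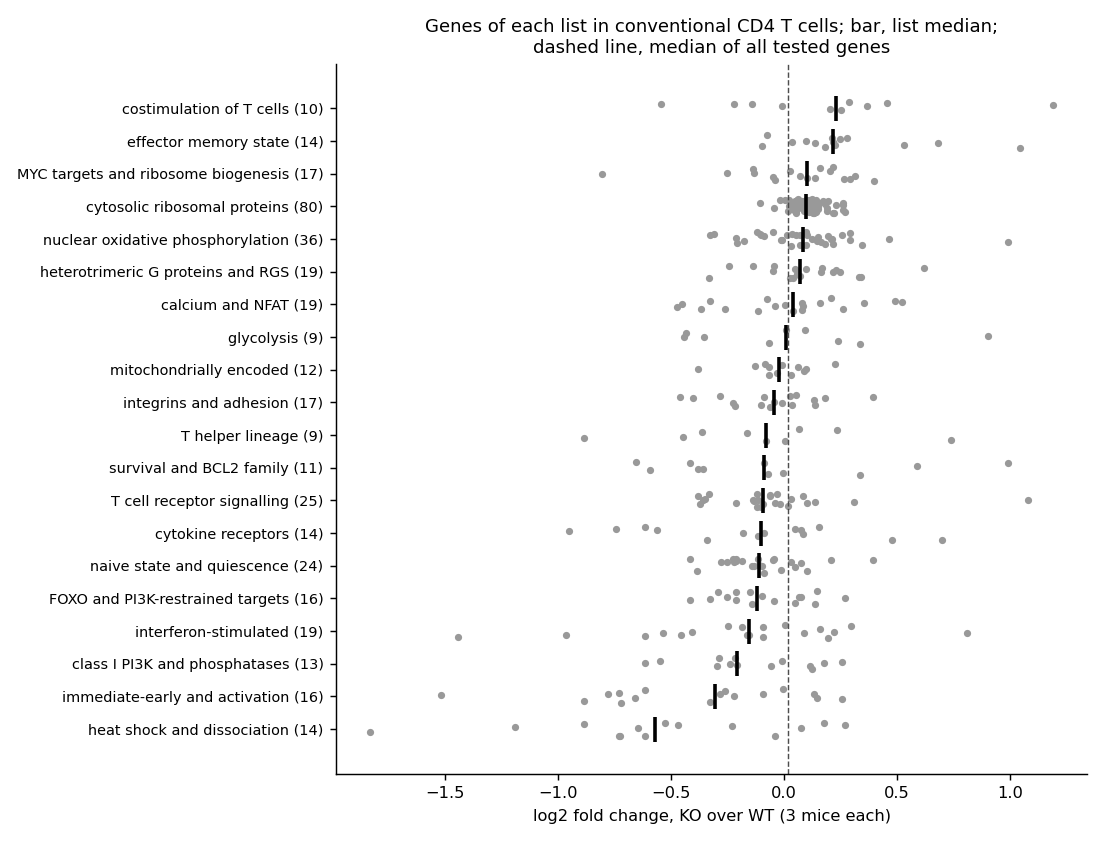
Log2 fold changes (KO over WT) of the tested genes of each group with at least 9 tested genes in conventional CD4 T cells, with 1 point per gene, a bar for the group's median and a dashed line for the median of all 3093 genes at 0.02. The heat shock and immediate-early groups reach lowest, with medians of -0.57 and -0.30, and the ribosomal protein genes form a narrow band with a median of 0.10.

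The KO effect was compared between the members and CD8 T cells of the same mice in 1 model with the mouse as a block. Of 4816 genes, 2 passed an edgeR adjusted p under 0.05 (0.0415%), and 263 had an unadjusted p under 0.05 (5.46%). Both had a positive difference. Trbv16, a variable segment of the T cell receptor beta chain, gave 11, 21 and 12 UMIs in KO members and 12, 7 and 19 in WT members. In CD8 T cells it gave 1, 17 and 17 UMIs in KO mice and 40, 63 and 68 in WT mice. Per 10000 UMIs all KO members lay above the WT members and all KO CD8 T cells below the WT CD8 T cells, a difference of 2.47 on the log2 scale (SE 0.43, edgeR adjusted p = 0.000174). Few cells carried the segment, 3, 9 and 7 among KO members and 5, 4 and 8 among WT members.

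The other gene, Hist1h2ap, encodes a replication-dependent histone H2A, and 1 cell decided its value. It gave 0, 3 and 44 UMIs in KO members and 1, 9 and 8 in WT members, and 42 of the 44 in KO3 came from 1 cell. That cell had 10378 UMIs and 2849 genes, with 50 UMIs of Hist1h2ae, 42 of H2afz, 14 of Top2a and 7 of Mki67, which dividing cells express. It had 8 Cd3e, 1 Cd4 and 2 Cd40lg UMIs and none of Cd79b or Ms4a1, and Scrublet did not call it a doublet. The difference was 2.48 (SE 0.56, edgeR adjusted p = 0.0431). Without that cell Hist1h2ap had too few counts to be tested, and Trbv16 was the 1 gene left (adjusted p = 0.00087).

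**Figure D5:**
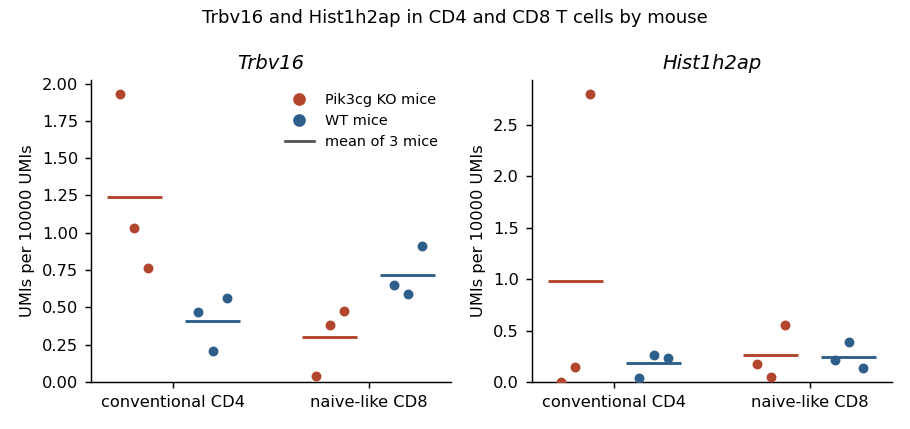
Levels of Trbv16 and Hist1h2ap in UMIs per 10000 UMIs of the class in conventional CD4 and CD8 T cells, with 1 point per mouse of 3 KO and 3 WT mice. Trbv16 is higher in KO than in WT members and lower in KO than in WT CD8 T cells, and the high Hist1h2ap point of KO3 members at 2.80 rests on 1 cell.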

How the data were processed

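Per the labels' protocols, libraries were made with a 10x Genomics V(D)J kit and sequenced on an Illumina instrument. The deposited UMI counts per gene and barcode were made by the authors using Cell Ranger (version 7.0.1 per the file headers), on mm10 per the submitters' processing notes. The authors' hashtag calls gave 19270 of 23516 barcodes 1 mouse; 3902 carried several tags and 344 no tag. Barcodes of 1 mouse with at least 500 UMIs and at most 10% mitochondrial UMIs were kept (19230; 40 removed). Doublets were limited by the hashtag calls. Scrublet (scanpy 1.11.5) called 64 and 76 cells in the 2 lanes and no member. B cell receptor contigs served only to count members with a contig.

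Counts were summed per mouse and class (at least 10 cells per mouse) and tested with edgeR 4.0.16 (quasi-likelihood, TMM, filterByExpr, two-sided, Benjamini-Hochberg over all tested genes) in R 4.3.3; steps were tested on simulated data. SE was taken from the fold change and the F statistic (|log2 fold change| / √F). Shares used exact permutation tests. DESeq2 1.42.0, other size factors, no count filter, single lanes, left-out mice and other limits on cells were alternatives.

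The members and lists were chosen with earlier results of these data known. Named genes were Pik3cg, 6 markers, the called gene, the 19 next smallest p-values among genes averaging 20 CPM or more in either genotype (no V, D, J or predicted genes), and per list the called genes and the 3 most abundant. Others were named after their values were seen: Hspa1a, Trbv16, Hist1h2ap and the cycling genes of its cell, Cd28, Cd5, the genes set beside the effector memory split, and list genes with an unadjusted p under 0.05. A gene of the detection list is not reported here. Gene positions are those of GRCm38.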

Additional observations from a re-analysis of the deposited data

Results flagged for a closer look

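The KO effect on 2 genes differed between conventional CD4 T cells and CD8 T cells by a test of the difference itself (an interaction in edgeR with the mouse as a block). For Trbv16 the difference, CD4 minus CD8, was 2.47 on the log2 scale (adjusted p = 0.000174). Within members its log2 fold change was 1.42 and in CD8 T cells -1.06, and neither lane alone gave a call (adjusted p = 0.0861 in lane 1 and 0.363 in lane 2), nor did DESeq2 (0.291).

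For Hist1h2ap the difference was 2.48 (edgeR adjusted p = 0.0431). It rested on 42 UMIs of 1 KO3 cell, and it was lost without WT1 (adjusted p = 0.226) or WT2 (0.565). Over the alternatives in which it could be tested, the adjusted p ranged from 0.0139 to 1.0.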

How the results depend on the processing

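No paired analysis was possible because the hashtag numbers 1 to 6 are each used for a single mouse, so the genotypes share no replicate number. The count of genes called between KO and WT members, 1 by edgeR, was 2 with at least 2 Cd4 UMIs, 4 in members with fewer than 2 effector memory genes, 15 with no filter on low counts, 0 in lane 1 alone and 0 without cells carrying any of the 6 interferon genes. At an unadjusted p under 0.05 the last 2 gave 109 and 156 genes. With the interferon limit lifted, chosen after seeing the data, it was 3. Leaving out 1 mouse gave 1 to 6 genes, 6 without KO1, 4 without KO3 and 3 each without KO2 or WT1. Hspa1b was called in each of these 6 fits. The count of genes whose KO effect differed between members and CD8 T cells, 2, was 1 with DESeq2 size factors, 0 with the DESeq2 test (55 at an unadjusted p under 0.05), 0 in lane 1 alone (170), 0 in lane 2 alone (180), 1 without the cell richest in Hist1h2ap, and 2 to 3 without 1 mouse.

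Leaving out 1 mouse, the difference in the share of retained cells lay between -2.49 and -1.76 percentage points and that of T cells between -5.25 and -1.19. Thinned to 1000 UMIs they were -1.08 and -1.46. The ratio to CD8 T cells lay between -0.0748 and 0.0328, and was 0.0288 when cells were thinned to 1000 UMIs and 0.0373 with all 4 limits lifted (added after seeing the data). The share with effector memory genes lay between -6.07 and 3.52 percentage points, and was 2.91 with at least 3 of 6 genes. The cause of these changes was not tested. Depth limits the comparison through KO1, whose 24 cells held 56964 UMIs.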

Other observations

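Trbv3, another beta chain variable segment, gave 2, 2 and 1 UMIs in KO members and 16, 16 and 34 in WT members (log2 fold change -2.46, SE 0.56, edgeR adjusted p = 0.133). It was named after its values were seen and was not called.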
